A study of Mus musculus with 2 samples.

Results

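The genes of the microRNAs (miRNAs) miR-137, miR-153 and miR-135 were examined in small RNA libraries from mouse cerebral cortex. They are 5 of the 2202 miRNA genes in the count tables (Mir137, Mir153, Mir135a-1, Mir135a-2 and Mir135b). They were chosen by name, for known roles in neurogenesis and at synapses, and not by any measured value. The 2 libraries form 1 group, described in the labels as female control cortex of strain B6NCrl, wild type, with no treatment named. Sex and age are given as not collected, so the labels differ on sex. Both libraries cite the same donor record, so separate animals are not stated and the spread between replicates may be technical in part. With a single group, the comparisons were between genes and between replicate 1 and replicate 2.

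A miRNA is cut from a hairpin precursor, from either of its arms (5p and 3p), and guides repression of messenger RNAs that match its seed, bases 2 to 8. In the brain, miR-137 is known to act on the balance between proliferation and differentiation of neural progenitors and on dendrite growth. miR-153 is known to repress components of synaptic vesicle release and α-synuclein, and the miR-135 family, miR-135a with miR-135b, is known for roles in axon growth and in the serotonin system.

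The mature sequences decide which reads a gene can be credited with, since reads placed at several loci enter no gene's count in these tables. All 5 genes had entries in the RefSeq miRNA table (GRCm38.p6), with 8 distinct mature miRNAs, given here 5′ to 3′ with the seed in capitals.
mmu-miR-137-5p: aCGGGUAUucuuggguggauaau
mmu-miR-137-3p: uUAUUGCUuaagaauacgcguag
mmu-miR-153-5p: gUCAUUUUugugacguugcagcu
mmu-miR-153-3p: uUGCAUAGucacaaaagugauc
mmu-miR-135a-5p: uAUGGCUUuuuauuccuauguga
mmu-miR-135a-1-3p: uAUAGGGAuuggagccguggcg
mmu-miR-135a-2-3p: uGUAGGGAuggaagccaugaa
mmu-miR-135b-3p: aUGUAGGGcuaaaagccauggg

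Among the 1679 mature miRNAs in the RefSeq table, each of these 8 had a seed of its own. The comparison does not cover mmu-miR-135b-5p. The seed of miR-135a-5p also occurs, letter for letter, in the precursor of Mir135b given below, so it is its own only among the entries compared. miR-135a-5p is made by both Mir135a-1 and Mir135a-2, with the same letters, while the 3p arms of the 3 miR-135 genes differ. Aligned without gaps, miR-135a-1-3p and miR-135a-2-3p were identical at 15 of 21 bases, and miR-135a-2-3p and miR-135b-3p, shifted by 1 base, at 16 of 21.

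The precursors show where reads of the miR-135 genes can be told apart. Capitals mark the longest run common to Mir135a-1 and Mir135a-2 (24 bases) and, in Mir135b, the longest run it has in common with Mir135a-1 (14 bases).
Mir135a-1: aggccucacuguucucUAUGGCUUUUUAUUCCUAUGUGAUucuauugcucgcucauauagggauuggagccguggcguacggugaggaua
Mir135a-2: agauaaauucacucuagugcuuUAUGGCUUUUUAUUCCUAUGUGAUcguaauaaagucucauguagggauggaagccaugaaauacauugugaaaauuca
Mir135b: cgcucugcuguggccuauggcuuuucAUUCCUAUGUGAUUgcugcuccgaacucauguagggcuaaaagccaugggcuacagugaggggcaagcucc

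The 24-base run holds the whole of miR-135a-5p. Of the 69 windows of 22 bases in the Mir135a-1 precursor, 3 also occurred in Mir135a-2, and none in any other of the 2202 annotated precursors. The same 3 were shared among the 79 windows of Mir135a-2. Mir137, Mir153 and Mir135b had no window of 22 or of 18 bases in another annotated precursor. The rest of the genome was not searched. A full-length read of miR-135a-5p thus matches both Mir135a loci equally, and the counts of these 2 genes are not the level of that mature miRNA. The tables give 1 count per gene and do not separate the arms.

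The 5 genes lie on 5 chromosomes (mm10, GENCODE M21), and none overlaps another miRNA gene. Mir137 lies at chr3:118433857-118433929 on the plus strand, in an exon of the noncoding gene Gm26871. Another miRNA gene, Gm24155, lies 791 bases from it on the same strand, with 0 counts in replicate 1 and 2 in replicate 2. Mir153 lies at chr12:117250817-117250885, plus strand, in an intron of Ptprn2, which encodes a phosphatase-like protein of dense-core vesicles, and within an intron of the antisense gene Gm5441. Mir135a-1 lies at chr9:106154124-106154213, plus strand, in an intron of the noncoding gene D030055H07Rik and opposite an exon of Glyctk, which encodes glycerate kinase. Mir135a-2 lies at chr10:92072086-92072185, minus strand, in an intron of Rmst, a long noncoding RNA known from human cells to act with SOX2 in neurogenesis. Mir135b lies at chr1:132198088-132198184, plus strand, in introns of the protein-coding genes Lemd1 and AC124108.1. For all 5 genes the opposite-strand column held 0 counts in both libraries, and the either-strand column equalled the sense column.

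Replicate 1 held 4429633 sense counts in miRNA genes and replicate 2 held 6985784, and the limit that a count of 0 allows (3 counts) was 0.677 and 0.429 CPM. CPM is the count of a gene in each library relative to all its sense counts in miRNA genes, times 1000000. Reads placed at several loci, absent from every gene's count, made up 43.9% and 47.9% of all reads. Of 14 neuron marker genes, 11 were at 2 CPM or more in both libraries, and all 14 together summed to 84014 CPM and 100541 CPM. The defining Mir124a genes did not reach that minimum in both, with 3 to 7 counts each in replicate 1 and 4 to 16 in replicate 2. Their mature miR-124, like miR-135a-5p, is made from several loci.

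The first question was how much of the cortical profile these genes make up. Together they held 3261 counts in replicate 1 and 6926 in replicate 2, which is 0.0736% of the counts (95% Wilson interval 0.0711 to 0.0762) and 0.0991% (0.0968 to 0.102). The mean was 0.0864% ± 0.0180 (SD, n = 2). All 5 passed the minimum of 2 CPM in both libraries, as did 438 of the 2202 genes. Wilson intervals here cover counting error only, since the tables hold reads without molecular identifiers.

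Mir137 led by a wide margin. It had 2825 counts (638 CPM, interval 615 to 662) in replicate 1 and 6357 counts (910.0 CPM, 888 to 933) in replicate 2. Its mean of 774 ± 193 CPM (SD, n = 2) ranked 111 among all genes and was above 74.7% of the detected genes. Mir137 held 86.6% of the counts of the 5 genes in replicate 1 (85.4 to 87.8) and 91.8% in replicate 2 (91.1 to 92.4). The lower of its 2 values, 638 CPM, was above the highest value of any of the other 4 genes, 39.5 CPM.

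Mir153, the vesicle release miRNA, had 175 counts (39.5 CPM, 34.1 to 45.8) in replicate 1 and 88 counts (12.6 CPM, 10.2 to 15.5) in replicate 2. The mean was 26.1 ± 19.03 CPM (SD, n = 2), with an SD close to the mean. It ranked 240 in replicate 1 and 293 in replicate 2.

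Mir135b, whose miRNA belongs to the miR-135 seed family, had 173 counts (39.1 CPM, 33.7 to 45.3) in replicate 1 and 217 counts (31.1 CPM, 27.2 to 35.5) in replicate 2, a mean of 35.1 ± 5.65 CPM (SD, n = 2). The counting intervals of the 2 libraries overlapped.

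Mir135a-1 had 46 counts (10.4 CPM, 7.79 to 13.9) in replicate 1 and 94 counts (13.5 CPM, 11.0 to 16.5) in replicate 2, a mean of 11.9 ± 2.17 CPM (SD, n = 2). Mir135a-2 had 42 counts (9.48 CPM, 7.02 to 12.8) in replicate 1 and 170 counts (24.3 CPM, 20.9 to 28.3) in replicate 2, a mean of 16.9 ± 10.5 CPM. The intervals of Mir135a-1 overlapped between the libraries and those of Mir135a-2 did not. Both genes lack the reads of miR-135a-5p that match either locus.

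**Figure D1:**
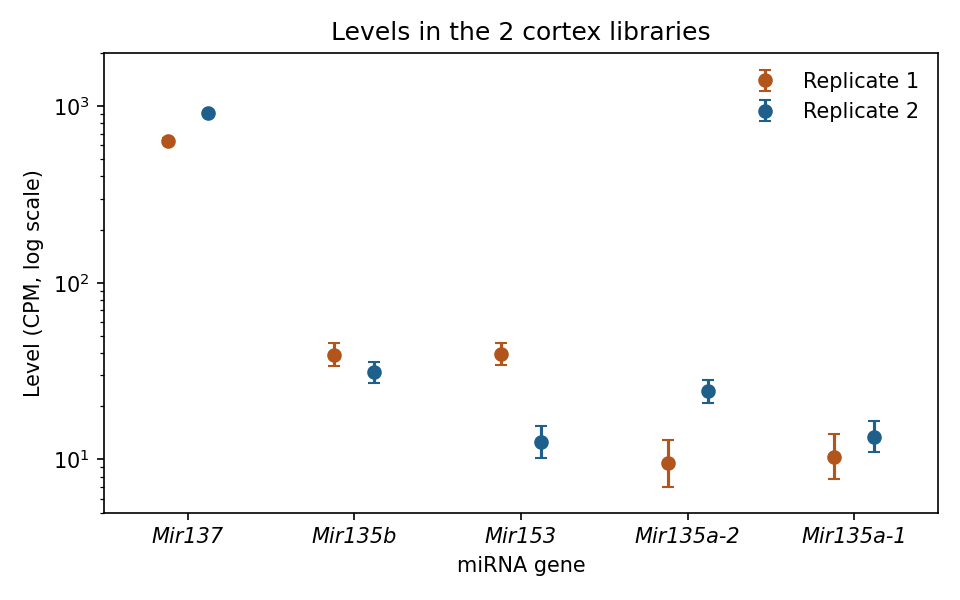
Level in CPM (log axis) of each of the 5 genes, with replicate 1 in orange and replicate 2 in blue. Bars are 95% Wilson intervals of the counts. Mir137 stands at 638 and 910.0 CPM, and the other 4 genes lie between 9.48 and 39.5 CPM in an order that differs between the libraries.

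By mean CPM the order was Mir137, Mir135b, Mir153, Mir135a-2 and Mir135a-1. Only the step from Mir137 to Mir135b, a difference of 739 CPM, was larger than the spread between the libraries and free of overlap. Mir135b and Mir153 differed by 9.01 CPM, less than the SD of Mir153. Mir153 and Mir135a-2 differed by 9.14 CPM, less than the SD of either. Mir135a-2 and Mir135a-1 differed by 4.99 CPM, less than the SD of Mir135a-2. In replicate 1 the order below Mir137 was Mir153, Mir135b, Mir135a-1 and Mir135a-2, and in replicate 2 it was Mir135b, Mir135a-2, Mir135a-1 and Mir153. Mir153 was thus second in replicate 1 and last in replicate 2.

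Precursors differ in length from 69 to 100 bases, while a sequenced read holds a mature miRNA whatever that length. Per 100 bases of precursor, Mir137 had a level of 1060 ± 264 CPM, Mir153 37.8 ± 27.6, Mir135b 36.1 ± 5.83, Mir135a-2 16.9 ± 10.5 and Mir135a-1 13.2 ± 2.41 (SD, n = 2). On this scale Mir153 and Mir135b changed places, by less than their spread.

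The second question was how far the 2 libraries give the same picture of these genes. Each gene's counts were set against the TMM-scaled sizes of the libraries in a two-sided exact binomial test, adjusted by Benjamini-Hochberg over the 438 detected genes. Calls of a difference required a 2-fold ratio or more, besides an adjusted p below 0.05. The test compares these libraries and their counting error, not conditions. Of the 5 genes, 2 were called, 1 toward each replicate. Over all 438 genes the test called 79, which is 18%, made up of 8.68% that were higher in replicate 1 and 9.36% that were higher in replicate 2. At an adjusted p under 0.05 alone, 280 of the 438 genes lay past counting error, and 3 of the 5 did (Mir137, Mir153 and Mir135a-2).

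Mir153 was higher in replicate 1, by 2.87 times. Its log2 ratio of replicate 1 over replicate 2 was 1.52 (exact 95% counting interval 1.15 to 1.91, adjusted p = 1.97e-16 in the exact binomial test). Mir135a-2 was lower in replicate 1, with a log2 ratio of -1.47 (-2.01 to -0.99, adjusted p = 2.53e-10 in the exact binomial test), so that replicate 2 had 2.77 times the level of replicate 1. The direction of these 2 calls was thus opposite.

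Mir137 was lower in replicate 1 by less than the ratio of 2 required for a call, with a log2 ratio of -0.64 (-0.70 to -0.57, adjusted p = 9.82e-89 in the exact binomial test). At this depth counting error is small beside that difference. Mir135a-1 had a log2 ratio of -0.49 (-1.04 to 0.02, adjusted p = 0.0882 in the exact binomial test) and Mir135b one of 0.21 (-0.09 to 0.50, adjusted p = 0.225 in the exact binomial test). Neither interval excluded equal levels with the TMM-scaled sizes used here, though each did in some other settings, given below. The median log2 ratio over the 5 genes was -0.49, which is the value of Mir135a-1, beside 0.03 over all genes tested. The 5 ratios ran from -1.47 to 1.52, so the median does not describe a common shift. With the trend in GC content described below removed, the 2 medians were -0.26 and -0.01.

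**Figure D2:**
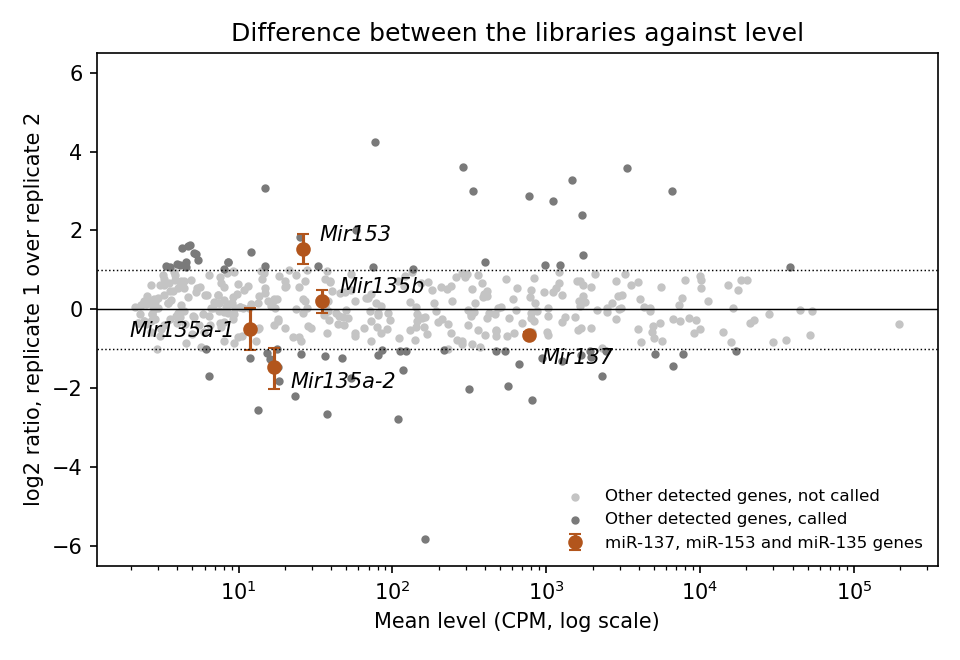
Log2 ratio of replicate 1 over replicate 2 against mean level in CPM (log axis) for the 438 detected genes. The 5 genes are in orange with exact 95% counting intervals, called genes in dark grey, and dotted lines mark a ratio of 2. Mir153 lies at 1.52 and Mir135a-2 at -1.47, and Mir137, Mir135a-1 and Mir135b lie within the dotted lines.

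Ratios between the genes inside a library do not depend on how libraries are scaled. For each count of Mir153 there were 16.1 counts of Mir137 in replicate 1 (exact 95% interval 13.9 to 18.9) and 72.2 in replicate 2 (58.5 to 90.2). Mir153 had 1.01 counts for each of Mir135b in replicate 1 (0.815 to 1.26) and 0.406 in replicate 2 (0.313 to 0.522). The counts of Mir137 for each of Mir135a-1 were 61.4 in replicate 1 (45.9 to 84.1) and 67.6 in replicate 2 (55.2 to 83.8), with overlapping intervals.

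Within the miR-135 genes the makeup of the counts differed between the libraries. The 3 genes together had 261 counts in replicate 1 and 481 in replicate 2 (58.9 and 68.9 CPM), a log2 ratio of -0.35 (exact interval -0.57 to -0.13). This ratio depended on scaling, with -0.22 (-0.45 to -0.004) for library totals and -0.45 (-0.67 to -0.23) with no filter. Mir135b took 66.3% of the counts of the 3 genes in replicate 1 (Wilson interval 60.3 to 71.7) and 45.1% in replicate 2 (40.7 to 49.6). Mir135a-2 took 16.1% in replicate 1 (12.1 to 21.04) and 35.3% in replicate 2 (31.2 to 39.7). The share of Mir135a-1 was 17.6% (13.5 to 22.7) and 19.5% (16.2 to 23.3). The intervals of Mir135b and of Mir135a-2 were apart between libraries, and those of Mir135a-1 overlapped. Between the 2 Mir135a genes alone, Mir135a-2 held 47.7% in replicate 1 (37.6 to 58.0) and 64.4% in replicate 2 (58.4 to 69.9). These shares describe reads placed at 1 locus. They do not give the share of miR-135a-5p made by each gene. Nor were they corrected for the trend in GC content described below. The precursor of Mir135a-2 has 33.0% GC and that of Mir135b 53.6%.

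**Figure D3:**
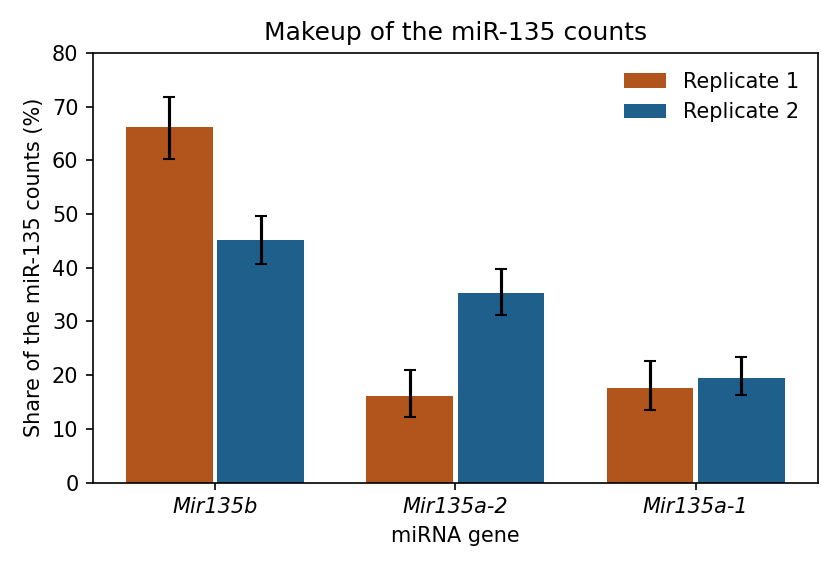
Share (%) of the counts of the 3 miR-135 genes taken by each, with replicate 1 in orange and replicate 2 in blue. Bars start at 0, with 95% Wilson intervals. Mir135b takes 66.3% in replicate 1 and 45.1% in replicate 2, and Mir135a-2 takes 16.1% and 35.3%.

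Base composition moved with the difference between the libraries. Detected genes with a precursor GC content under 40% had a median log2 ratio of -0.49 (32 genes), those from 40 to under 45% one of -0.44 (56 genes), those from 45 to under 50% one of -0.16 (69 genes), those from 50 to under 55% one of -0.05 (100 genes) and those at 55% or more one of 0.36 (181 genes). The precursor of Mir135a-2 had a GC content of 33.0%, and with the trend removed its log2 ratio was -0.90 (-1.43 to -0.42), short of a call. The precursor of Mir153 had 42.0%, in a range whose median was toward replicate 2, and its log2 ratio was 1.89 (1.52 to 2.28) with the trend removed. Mir137 (45.2%), Mir135a-1 (46.7%) and Mir135b (53.6%) then had log2 ratios of -0.36, -0.26 and 0.17. The adapter trimming document cited also differs between the libraries, and its part in these differences cannot be told apart from the replicate.

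**Figure D4:**
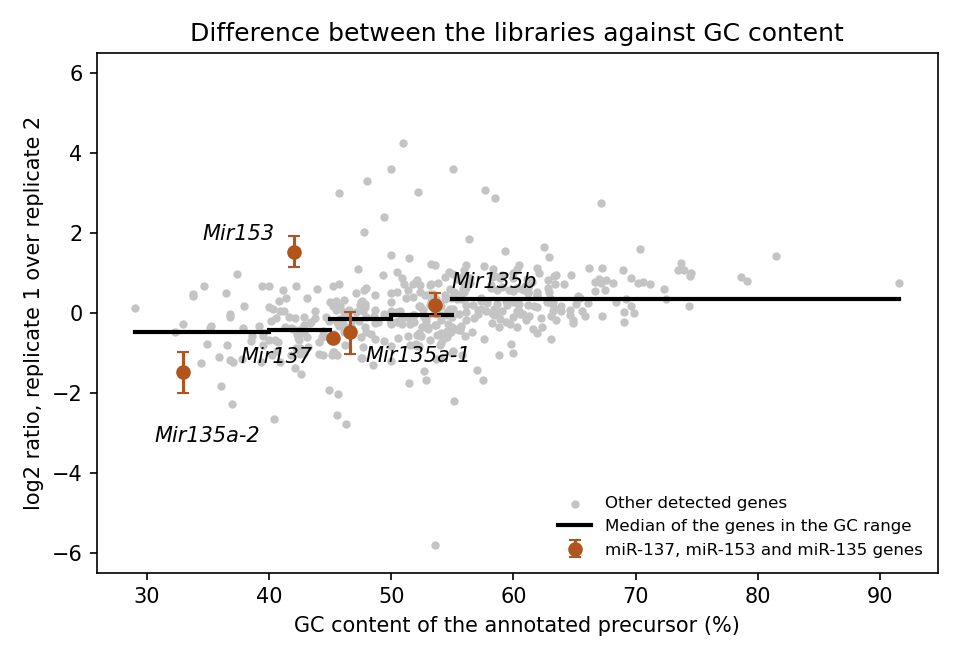
Log2 ratio of replicate 1 over replicate 2 against the GC content of the annotated precursor (%) for the 438 detected genes. The 5 genes are in orange with exact 95% counting intervals, and black lines are the medians of the genes in each GC range. Mir135a-2, at 33.0% GC, lies on the low side of the trend, and Mir153, at 42.0% GC, lies above it.

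miRNAs of other cell types also differed between the libraries. In bulk tissue, fewer cells of a type and less RNA per cell cannot be told apart. Epithelial markers, higher in replicate 1 as Mir153 was, summed to 12838 CPM in replicate 1 and 2060 CPM in replicate 2. All 7 were detected, 6 were called higher in replicate 1 and none was at 0. The leading ones were Mir200c, with 27393 counts in replicate 1 and 3283 in replicate 2, and Mir200b, with 11341 and 6291. The remaining one, Mir203, was lower in replicate 1, with 207 counts there and 475 in replicate 2 (log2 ratio -0.66). It was not called at a ratio of 2. Markers of sensory and endocrine cells summed to 18587 CPM in replicate 1 and 4194 CPM in replicate 2, with 7 of 7 detected, 5 called higher in replicate 1 and none at 0. Mir183 led them, with 52574 counts in replicate 1 and 9549 in replicate 2. Mir7b, the next by mean level, went the other way, with 7680 counts in replicate 1 and 15296 in replicate 2, and was not called (log2 ratio -0.46). Their part in the difference of Mir153 was not tested.

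Choroid plexus and ependymal markers, higher in replicate 2 as Mir135a-2 was, summed to 1175 CPM in replicate 1 and 2472 CPM in replicate 2. Of these 7, 5 were detected, 4 were called higher in replicate 2, and Mir449b was at 0 in both libraries. With the GC trend removed 2 of them were called, Mir204 and Mir211. Mir204 led them, with 3447 counts in replicate 1 and 12258 in replicate 2, followed by Mir34c with 1441 and 4331. Their part in the difference of Mir135a-2 was not tested. Oligodendrocyte markers had no call (3 of 3 detected), summing to 7110 CPM in replicate 1 and 7851 in replicate 2, led by Mir219a-2 and Mir338. Blood cell markers had none either (2 of 4 detected), with 20.3 and 26.6 CPM, led by Mir486 and Mir223, and Mir144 was at 0 in replicate 2. Mir451a, under the minimum in replicate 1, had 8 counts there and 75 in replicate 2, and was called higher in replicate 2 when no minimum was set. Among the 11 detected neuron markers, led by Mir132 and Mir598, none was called, while in the either-strand column Mir129-2 was called higher in replicate 1.

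The 5 genes were set beside other miRNAs known from neurogenesis and from synapses, in lists that were chosen with earlier results of these data known. Of 22 neurogenesis miRNA genes, 17 were detected. Over all 438 genes tested 18% were called, 8.68% as higher in replicate 1 and 9.36% as higher in replicate 2. Of the 17, none was called toward replicate 1, and 2 were called as higher in replicate 2. They were Mir9-1 (49 counts in replicate 1 and 449 in replicate 2) and Mir9-3 (18 and 157). Both encode miR-9, which acts on neural progenitors, and miR-9, like miR-135a-5p, is made from several loci. The call of Mir9-1 was lost in the either-strand column, where it had 0 counts in both libraries. With the GC trend removed, Mir381 was called higher in replicate 1. Over the 17 detected genes the log2 ratio had a median of -0.29. The highest members were Mirlet7b (53076 ± 2021 CPM), of the let-7 family that promotes differentiation, Mir128-1 (7392 ± 584 CPM), a neuronal miRNA, and Mir34a (5055 ± 1459 CPM; SD, n = 2). Mir137, at 774 CPM, was above the median of 368 CPM over the 22 genes, and the other 4 genes were below it.

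All 22 synapse and dendrite miRNA genes were detected. The shares called over all genes tested were 8.68% higher in replicate 1 and 9.36% higher in replicate 2, or 18% in either direction. The log2 ratio had a median of -0.20 over the list. None of the 22 was called higher in replicate 1 and 4 were called higher in replicate 2 (Mir191, Mir26b, Mir379 and Mir181a-1). The ratios of these 4 ran from -1.24 for Mir379 to -1.02 for Mir181a-1. With library totals 2 of these were called (Mir191 and Mir379), and with the GC trend removed 2 (Mir191 and Mir26b). In the either-strand column Mir129-2 was called higher in replicate 1, and 3 were called higher in replicate 2, without Mir191. Mir132, induced by neuronal activity (52078 ± 13446 CPM), Mir125a (16452 ± 1316 CPM) and Mir29a (14014 ± 3129 CPM; SD, n = 2) were the highest. The log2 ratio of Mir132 was -0.66, beside -0.64 for Mir137, but ratios on the list ran both ways, from -1.24 for Mir379 to 0.62 for Mir485. Mir212, for instance, had a log2 ratio of 0.34. At a ratio of 1.5, 2 of the 22 were called higher in replicate 1 (Mir485 and Mir188) and 7 higher in replicate 2, Mir132 among them. Whether Mir137 varies with any gene of the list was not tested.

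Genes with levels most like those of each gene were found by the distance in log2(CPM + 1) over the 2 libraries, among detected genes. With only 2 libraries this describes level and ratio and nothing more. The nearest to Mir137 were Mir181d (678.8 CPM in replicate 1 and 931 CPM in replicate 2, distance 0.0957), Mir125b-2 and Mirlet7c-2. The nearest to Mir153 were Mir214 (177 counts in replicate 1 and 71 in replicate 2, distance 0.285), Mir483 and Mir7046, each also with more counts in replicate 1. Those nearest to Mir135a-2 were Mir448 (45 and 181 counts, distance 0.125), Mir7j and Mir1264. Mir135a-1 was nearest to Mir344g, Mir551b and Mir503 (distances from 0.202 to 0.256), and Mir135b to Mir33, Mir136 and Mir344b (from 0.109 to 0.171).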

How the data were processed

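Small RNA was sequenced in 2 cortex libraries. The authors deposited raw read counts per annotated miRNA gene, in columns for either strand and for each strand, on mm10 with the M21 annotation, per the labels and a readme deposited beside them. The settings of aligner, counter and trimming were not given in the sources used here. The 4 lines that name no gene were left out of library sizes. All 2202 gene IDs matched GENCODE M21, and the 5 precursors had the same letters in RefSeq and GENCODE.

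The sense column was scaled to CPM. TMM factors came from edgeR 4.0.16 on genes at 2 CPM or more in both libraries, and alternative size factors from DESeq2 1.42.0. Exact binomial tests, with 0.5 counts added for log2 ratios only, and Benjamini-Hochberg adjustment used scipy 1.17.1. The GC trend was a lowess fit (statsmodels 0.14.6). The test was checked on counts simulated with counting error alone and scaled by library totals. That check does not cover other variation between libraries. Depth was 4429633 and 6985784 sense counts.

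The named genes were the 5 genes, the 3 nearest to each, the 3 highest and all called genes of the neurogenesis and synapse lists, the 2 highest of each marker list, overlapping genes and miRNA genes within 10 kb. Genes at 0, Mir124a and further marker genes were named in addition, after their values were seen. The genes and lists were chosen with earlier results of these data known.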

Additional observations from a re-analysis of the deposited data

How the results depend on the processing

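The log2 ratios of the 5 genes kept their direction under library totals, DESeq2 size factors, no filter, a filter of 10 CPM, the either-strand column, a thinned deeper library and removal of the GC trend. Mir135a-2 could not be fitted at 10 CPM, where its level in replicate 1 was below the minimum. Mir153 ranged from 1.42 to 1.89 and stayed called. Mir135a-2 ranged from -1.57 to -0.90 and lost its call with the GC trend removed (-0.90). At 10 CPM 1 of the 4 genes tested was called, and with the GC trend removed 1 of the 5. In the other settings 2 or 3 of the 5 were called. The interval of Mir135b excluded equal levels with library totals (0.03 to 0.63) and with the thinned library (0.01 to 0.69). That of Mir135a-1 did so with DESeq2 size factors (-1.07 to -0.01) and with no filter (-1.14 to -0.07). Neither gene was called there. Over all genes, 52 of 294 were called at 10 CPM and 58 of 438 with the GC trend removed, against 79 of 438. At a ratio of 1.5, which Mir137 also passed, 171 of 438 were called. The remaining settings called from 71 (of 415, either-strand column) to 90 (of 787, no filter). Library totals moved the median log2 ratio of all genes to 0.16, with 55 calls toward replicate 1 and 29 toward replicate 2, against 38 and 41. Leaving Mir139 out of the total raised the levels of all 5 genes, and the summed share to 0.108%. Mir137 was then at 968 CPM, Mir135b at 43.6 CPM, Mir153 at 32.1 CPM, Mir135a-2 at 21.3 CPM and Mir135a-1 at 14.9 CPM. For Mir153 and Mir135a-2, whose SDs are large, the rise was less than 1 SD. The either-strand column, TMM-scaled sizes and scaling to uniquely placed reads moved each level by less than 1 SD. Of the 5 places in the order of levels, 3 were as by mean CPM when levels were set per 100 bases, and 1 to 2 when a replicate was left out, Mir137 first each time. Counts of 42 to 170 for the Mir135a genes limit their ratios to wide intervals. No paired analysis was possible because the series has 1 group.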
